A study of Mus musculus with 23 samples.

Results

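Capillary endothelial genes are described here across the 4 groups of the study. The set holds 10 genes, named by symbol with earlier results of these data known: Gpihbp1, Kit, Aplnr, Plvap, Sema3c, Car4, Ednrb, Sox17, Cldn5 and Pecam1. Each was found once among the 35322 genes of the table, and all 10 passed the filter on low values that left 16795 genes for testing. Lung RNA-Seq libraries from 23 offspring of BALB/c mice were available, which the study's design describes as 13 weeks old and female. Dams received fine particulate matter (PM2.5) or saline intranasally before mating, during gestation and until weaning. The 7 Sham offspring were born to saline dams and the 7 PM offspring to PM2.5 dams, and both groups had control challenges without allergen. The 5 Sham-OVA and 4 PM-OVA offspring came from the same kinds of dams and were sensitised to ovalbumin (OVA) with alum and then challenged with aerosolised OVA, a model of allergic airway disease (AAD). The comparisons ask how the genes changed with AAD, whether maternal exposure changed their levels, and whether it changed their response. The labels give the control challenge as PBS and the paper's methods as saline. The labels name no dam for a library, so offspring of 1 group may be littermates, and p-values measure the spread between these libraries.

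The alveolus is wrapped in a dense capillary net that holds a pair of endothelial cell types. Aerocytes are large, thin cells specialised for gas exchange and carry Car4 and Ednrb, while general capillary cells regulate vessel tone, can divide and give rise to both types, and carry Gpihbp1, Kit, Aplnr and Plvap. Apelin, made by aerocytes, is the ligand of the receptor that general capillary cells carry, and endothelin acts on the Ednrb receptor of aerocytes. Cldn5 and Pecam1 hold neighbouring endothelial cells together in vessels of all sizes, and Sox17 is a transcription factor best known from arteries.

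Of the sequences upstream of the RefSeq starts of these genes, those of 4 members are shown because the members span the responses found. Kit and Ednrb fell after OVA challenge, Car4 rose and Cldn5 did not pass the test. The stretches of Car4, Ednrb and Cldn5 lie immediately upstream of the transcription start given by RefSeq on GRCm38.p6. The Ednrb stretch lies within the span that GENCODE gives the gene (chr14:103814625-103844402), downstream of its GENCODE start. That of Kit ends where the gene starts in GENCODE and lies further from the RefSeq start, as the exon bases between were left out. All are printed 5′ to 3′ on the strand of the gene, without bases that GENCODE places in an exon of that gene. Capitals mark the letters GGGCGG (a GC box) or AGGAAG (an ETS-type core), read on either strand. The Kit stretch is chr5:75574737-75574915 on the plus strand, that of Car4 chr11:84957504-84957753 on the plus strand, that of Ednrb chr14:103843702-103843951 on the minus strand and that of Cldn5 chr16:18776597-18776846 on the plus strand.
Kit: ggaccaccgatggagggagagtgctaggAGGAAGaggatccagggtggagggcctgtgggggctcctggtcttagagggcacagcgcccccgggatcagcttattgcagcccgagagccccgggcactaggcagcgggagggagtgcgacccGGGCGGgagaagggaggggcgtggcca
Car4: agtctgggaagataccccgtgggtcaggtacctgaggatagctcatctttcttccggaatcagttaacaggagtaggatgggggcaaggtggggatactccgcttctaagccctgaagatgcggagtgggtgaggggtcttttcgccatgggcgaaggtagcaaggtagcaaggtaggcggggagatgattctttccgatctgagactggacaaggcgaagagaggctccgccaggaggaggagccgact
Ednrb: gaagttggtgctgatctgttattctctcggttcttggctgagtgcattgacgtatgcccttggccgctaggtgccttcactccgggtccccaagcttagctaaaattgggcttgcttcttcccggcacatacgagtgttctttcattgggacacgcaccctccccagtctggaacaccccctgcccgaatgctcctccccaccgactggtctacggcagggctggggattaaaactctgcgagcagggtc
Cldn5: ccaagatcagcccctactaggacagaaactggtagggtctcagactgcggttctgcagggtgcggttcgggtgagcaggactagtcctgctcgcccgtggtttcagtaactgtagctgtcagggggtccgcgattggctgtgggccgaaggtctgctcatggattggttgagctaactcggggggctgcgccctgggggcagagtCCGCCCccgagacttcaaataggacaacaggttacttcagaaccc
The 179 bases of Kit held 1 GC box and 1 ETS-type core, and the 250 of Cldn5 held 1 GC box. Neither string was in the 250 bases of Car4 or Ednrb, and TATAAA and AACAAT (a SOX-type core) were in none of the 4. For comparison, 32.9% of 27025 RefSeq promoters of 250 bases held GGGCGG, 29.2% AGGAAG, 13.0% TATAAA and 9.65% AACAAT. The 4 stretches had 10, 11, 11 and 12 CpG dinucleotides in that order, against a median of 6 over all promoters. The Kit stretch, at 179 bases, is shorter than the 250 bases of the promoters it is set against. Matches of letters describe these windows only, and whether a factor binds there was not measured here.

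Gene-assigned reads numbered 13089691 to 17393579 in the 14 saline libraries and 2298645 to 12355561 in the 9 OVA libraries. Values are RPM, which are normalised for library depth but not for gene length. The lowest read number behind any member was 36, for Ednrb in Sham-OVA replicate 3, the shallowest library. A few libraries stood apart. PM replicate 5 had the lowest level of its group in 9 of the 10 members, and the 14 pan-endothelial genes summed to 3298 RPM there against 7044 to 8045 in the other PM libraries. Sham replicate 3 was lowest for 7 members and Sham-OVA replicate 3 for 7. Sham replicate 1 went against the female label, with 0.289 RPM of Xist, made from the inactive X chromosome of females, and 54.0 RPM of the Y-linked Eif2s3y. Fold changes without PM replicate 5 are given below for most members, and without Sham-OVA replicate 3 for some. Sham replicates 1 and 3 were each left out in turn, and only the calls that this changed are named.

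In Sham lung, divided by the length of the longest annotated transcript, Cldn5 (672 ± 199 RPM per kb, SD, n = 7) and Plvap (525 ± 184) had the highest levels and differed by less than either SD. Pecam1 followed at 298 ± 72.4 RPM per kb, then Car4 at 166 ± 25.1 and Gpihbp1 at 124 ± 20.03. Sema3c (73.7 ± 18.5 RPM per kb), Aplnr (53.8 ± 15.6) and Kit (48.2 ± 6.93) were lower, and the last of these differed from Aplnr by less than either SD. Ednrb (33.3 ± 5.51 RPM per kb) and Sox17 (25.5 ± 5.09) were lowest. In Sham-OVA the 5 lowest were Sema3c (22.1 ± 3.76 RPM per kb, SD, n = 5), Aplnr (15.7 ± 5.397), Kit (15.6 ± 7.03), Sox17 (10.2 ± 3.78) and Ednrb (8.098 ± 3.27), and Car4 (334 ± 74.1) stood above Pecam1 (289 ± 59.2) on the same scale.

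**Figure D1:**
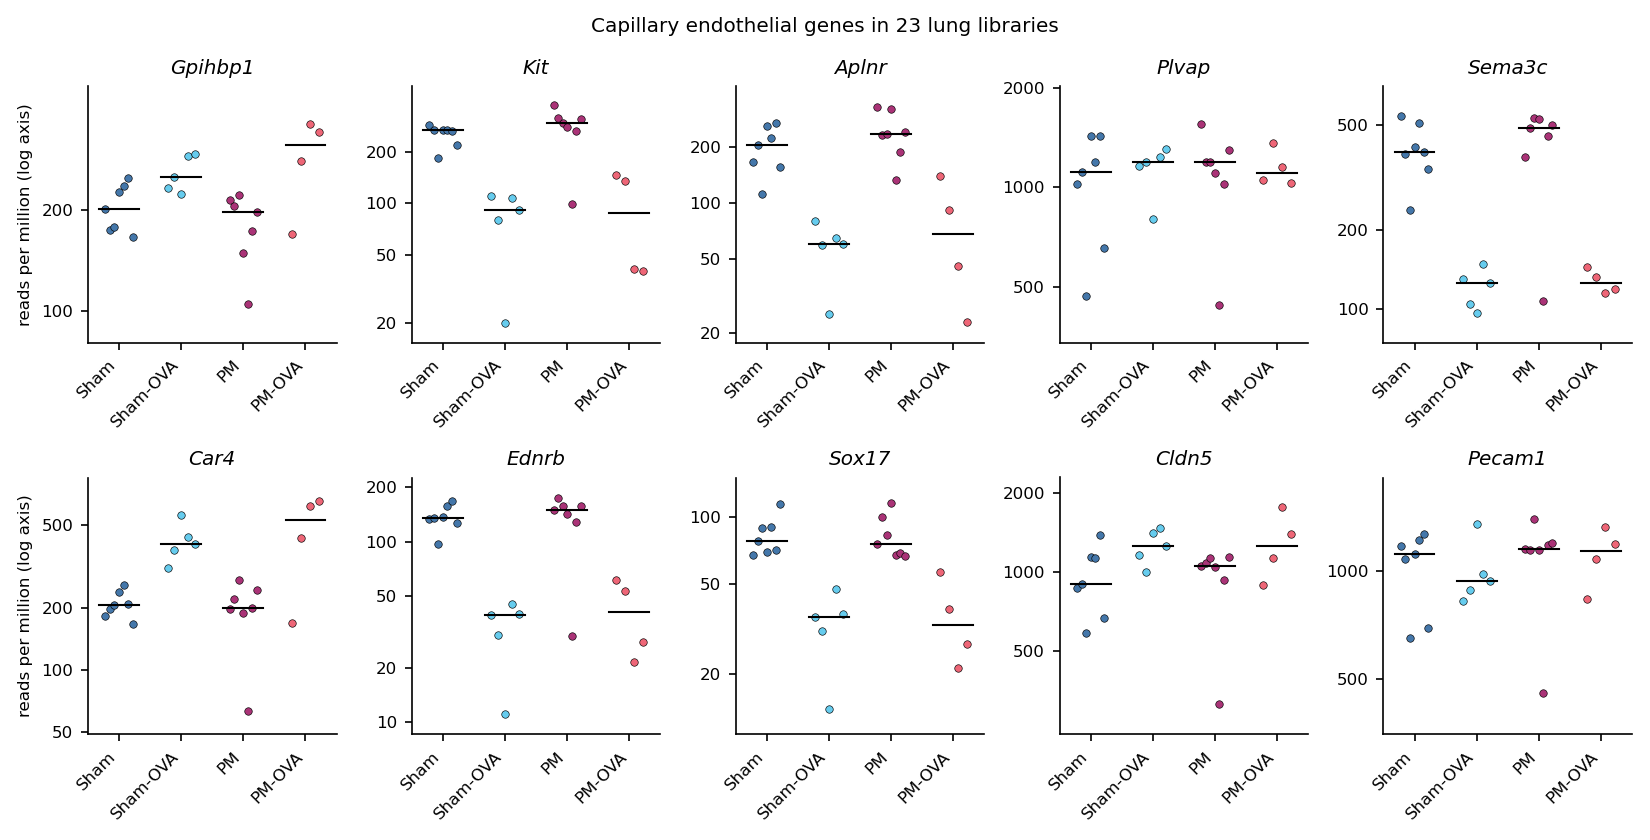
Level of each capillary endothelial gene in RPM on a log axis, 1 point per library and a black line at the group median, for Sham (7 libraries), Sham-OVA (5), PM (7) and PM-OVA (4). Kit, Aplnr, Sema3c, Ednrb and Sox17 are lower in every Sham-OVA library than in every Sham library, Car4 is higher, and the single low PM point in 9 of the panels is PM replicate 5.

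After OVA challenge in Sham offspring, 5 capillary endothelial genes fell 2.62-fold to 4.43-fold: Ednrb, Kit, Aplnr, Sema3c and Sox17. Car4 rose about 1.99-fold and Gpihbp1 1.27-fold, and Plvap, Cldn5 and Pecam1 did not pass the test. In PM offspring the same 5 genes fell, by 2.38-fold to 3.77-fold, and the same 2 rose. The calls are from limma on log2(RPM + 0.5) with Benjamini-Hochberg adjustment over all genes tested, at an adjusted p under 0.05, and fold changes on this scale understate the change of low genes. In Sham offspring 5 of 10 members fell, where 47.5% of all genes fell, and 2 rose, where 20.6% rose. In PM offspring the background was 45.2% lower and 20.1% higher for the same counts of members. Neither share of the members stood far from that of all genes. The 5 falls were called in each of the 12 fits in Sham offspring and 11 fits in PM offspring that left out 1 library. The median log2 fold change of the members was -0.71 in Sham and -0.59 in PM offspring, against -0.48 and -0.43 for all genes. The shift of all genes depends on scaling: median-of-ratios scaling brought the median of all genes in Sham offspring to -0.17, with 4903 genes higher and 6407 lower in place of 3453 and 7978. The corresponding split of the members in Sham offspring was 3 higher and 5 lower, since Cldn5 then passed.

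At the study's threshold, an adjusted p under 0.000001 with an absolute log2 fold change above 1, limma called none of the members in either cohort, and 1.98% of all genes higher and 2.53% lower in Sham offspring, 0.262% and 0.0238% in PM offspring. DESeq2 on the recovered reads called Car4 higher and Kit, Ednrb, Aplnr and Sema3c lower at that threshold in Sham offspring, where it called 13.7% of all genes higher and 15.0% lower. It called no member in PM offspring, with 10.5% and 6.25% of all genes. edgeR called none in either. At an unadjusted p under 0.05, limma passed 7 members in each cohort. Of all 16795 genes it passed 11902 in Sham and 11559 in PM offspring, and the count of members is near that share.

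**Figure D2:**
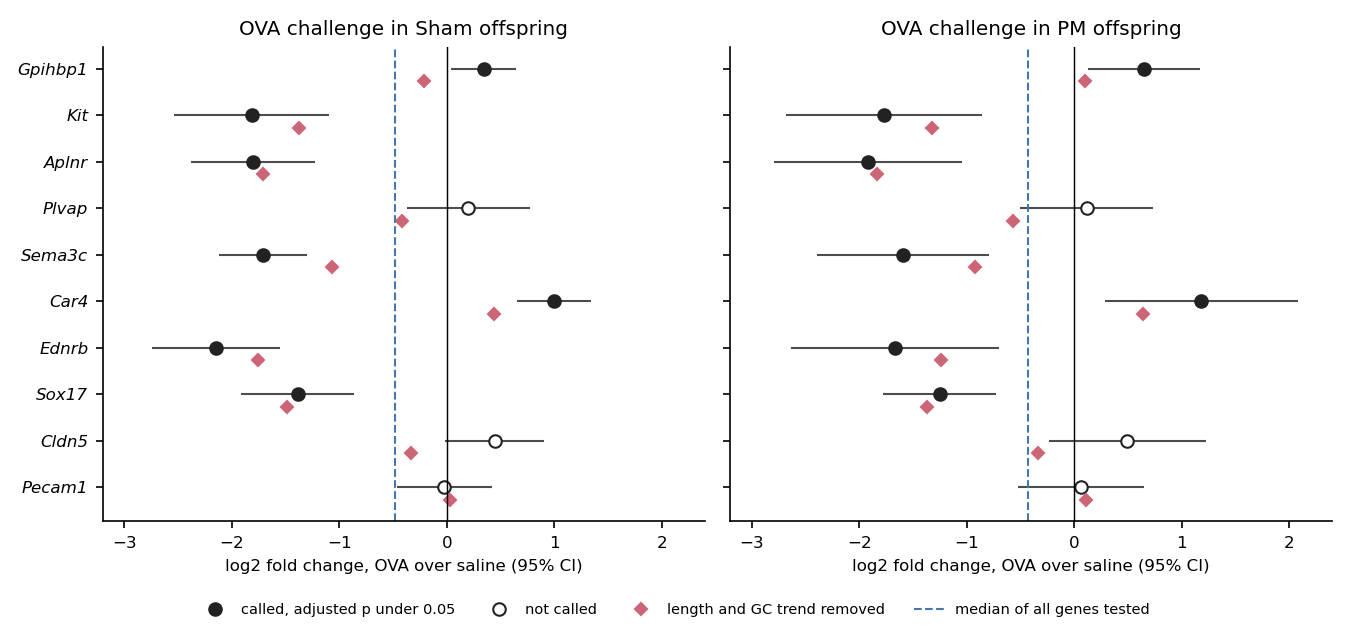
Log2 fold change of each gene with OVA challenge in Sham offspring (5 against 7 libraries) and PM offspring (4 against 7), with 95% confidence intervals as lines, filled circles for calls at an adjusted p under 0.05, and diamonds for the value after a trend with transcript length and GC content was removed. The 5 lower genes lie below the dashed median of all genes in both panels, and the other 5 lie above it.

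Car4 and Ednrb, the pair that marks aerocytes, moved in opposite directions. Positions of genes are those of GENCODE on GRCm38. Car4 (chr11:84957786-84966044, plus strand) encodes carbonic anhydrase 4, a membrane-anchored enzyme that speeds the exchange of carbon dioxide and bicarbonate at the capillary surface. It measured 167 to 258 RPM in Sham with a median of 206, and 311, 379, 563, 439 and 405 RPM in Sham-OVA replicates 1 to 5. All 5 OVA libraries lay above all 7 Sham libraries, and the log2 fold change was 1.00 (SE 0.16, adjusted p = 7.61e-05). In PM offspring the level was 63.7 to 273 RPM in PM with a median of 199.98, and 169.6, 435, 623 and 654 RPM in PM-OVA replicates 1 to 4, a log2 fold change of 1.18 (SE 0.42, adjusted p = 0.0237). Here PM-OVA replicate 1 fell within the PM range while the other 3 lay above it. The call in PM offspring was lost without PM-OVA replicate 3 (adjusted p = 0.0837) or 4 (adjusted p = 0.0819), and the log2 fold change was 1.61 without PM-OVA replicate 1 and 0.93 without PM replicate 5, called in both.

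Ednrb (chr14:103814625-103844402, minus strand) encodes the endothelin receptor type B, which binds and clears endothelins and triggers nitric oxide release in endothelial cells. It measured 97.4 to 168 RPM in Sham with a median of 135, and 39.1, 30.6, 11.2, 45.5 and 39.9 RPM in Sham-OVA. Every OVA library was below every Sham library, and the log2 fold change of -2.15 (SE 0.28, adjusted p = 1.17e-05) was the largest fall among the members in Sham offspring. In PM offspring the level was 30.2 to 175 RPM in PM with a median of 149, and PM-OVA libraries had 61.6, 53.6, 21.6 and 27.96 RPM. PM replicate 5, at 30.2 RPM, overlapped with the OVA libraries, and the other 6 PM libraries, from 129 RPM upwards, did not. The log2 fold change in PM offspring was -1.67 (SE 0.45, adjusted p = 0.00575), and -1.995 (adjusted p = 1.47e-04) without PM replicate 5. Without Sham-OVA replicate 3, the value in Sham offspring was -1.80. Other genes of the endothelin pathway fell with it: the ligands Edn1 (log2 fold change -1.66 (adjusted p = 7.57e-05) in Sham and -1.80 (adjusted p = 0.002004) in PM offspring) and Edn3 (-2.10 (adjusted p = 2.09e-05) and -1.92 (adjusted p = 2.54e-04)). The type A receptor Ednra also fell in both, by 1.23 and 1.32 on the log2 scale, while the converting enzyme Ece1 had 0.27 and 0.31 and did not pass with limma, but was called higher by DESeq2 (0.82 and 0.90) and edgeR (0.88 and 0.87).

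The 4 genes of general capillary cells divided in the same way. Gpihbp1 (chr15:75596628-75599481, plus strand) encodes the protein that carries lipoprotein lipase across the capillary endothelium and anchors it on the luminal side. It measured 166 to 249 RPM in Sham with a median of 201, and 232, 251, 223, 290.02 and 293 RPM in Sham-OVA. The groups overlapped, with 3 of the 5 OVA libraries above all Sham libraries, and the log2 fold change was 0.34 (SE 0.14, adjusted p = 0.0452). PM libraries had 105 to 222 RPM with a median of 198, and PM-OVA libraries 170.3, 280.4, 360.3 and 343 RPM, a log2 fold change of 0.65 (SE 0.24, adjusted p = 0.0305). Both calls were close to the threshold: when 1 library at a time was left out, the gene was called in 5 of 12 fits in Sham offspring (adjusted p 0.0132 to 0.111) and in 7 of 11 in PM offspring (adjusted p 0.00240 to 0.105). In Sham offspring the call was lost without any 1 of Sham replicates 1, 2, 3 and 7 and Sham-OVA replicates 2, 4 and 5, and in PM offspring without any 1 of PM replicate 4 and PM-OVA replicates 2, 3 and 4. Count tests and scaling by median of ratios gave larger values, up to 0.80 in Sham offspring (edgeR) and 1.15 in PM offspring (DESeq2). The enzyme itself, Lpl, did not pass in either cohort (-0.21 and -0.18). Its maturation factor Lmf1 rose by 0.59 and 0.45 on the log2 scale, and its inhibitor Angptl4 had -0.19 (adjusted p = 0.667) in Sham offspring and -0.70 (adjusted p = 0.0402) in PM offspring, where it was not called by DESeq2 (-0.34) or edgeR (-0.33).

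Kit (chr5:75574916-75656722, plus strand) encodes the receptor tyrosine kinase for stem cell factor, which general capillary cells share with mast cells. It measured 186 to 289 RPM in Sham with a median of 268, and 111, 80.6, 19.9, 107 and 91.3 RPM in Sham-OVA. All OVA libraries were below all Sham libraries, with Sham-OVA replicate 3 the lowest by far. The log2 fold change was -1.82 (SE 0.34, adjusted p = 2.59e-04), and -1.37 without that library. PM libraries had 99.5 to 375 RPM with a median of 295, and PM-OVA libraries 146, 135, 41.6 and 40.5 RPM, a log2 fold change of -1.77 (SE 0.42, adjusted p = 0.00285). PM-OVA replicates 1 and 2 lay above the single low value of PM replicate 5 and below the other PM libraries. The ligand gene Kitl fell by 2.06 (adjusted p = 1.33e-07) and 2.27 (adjusted p = 1.55e-04) on the log2 scale. Mast cell genes moved the other way: of 8 listed, 7 were tested, 4 rose and none fell in Sham offspring, and their sum was 61.9 to 103 RPM in Sham and 140.3 to 259 in Sham-OVA. In PM offspring 4 rose and Ms4a2, a chain of the IgE receptor, fell (not called by DESeq2 or edgeR), and the sum was 76.8 to 98.2 RPM in PM and 135 to 180.3 in PM-OVA. None of the 8 was at 0 in every library, and their part in the Kit values was not tested.

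Aplnr (chr2:85136225-85139923, plus strand) encodes the apelin receptor. Its level was 112 to 271 RPM in Sham with a median of 205, and 79.98, 59.9, 25.5, 64.5 and 60.6 RPM in Sham-OVA, again with no overlap and with replicate 3 lowest, for a log2 fold change of -1.80 (SE 0.27, adjusted p = 4.35e-05). PM libraries had 134 to 328 RPM with a median of 235, and PM-OVA libraries had 141, 91.3, 45.9 and 23.1 RPM. Its value of -1.92 (SE 0.40, adjusted p = 0.00134) on the log2 scale was the largest fall among the members in PM offspring, although PM-OVA replicate 1 exceeded PM replicate 5 by a little. Without PM replicate 5 the value was -2.05. The ligand gene Apln fell in both cohorts, with -1.10 (adjusted p = 1.65e-04) and -1.28 (adjusted p = 1.84e-04), and the second ligand gene of this receptor, Apela, was too low to be tested.

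Plvap (chr8:71497765-71511752, minus strand) encodes the protein of the diaphragms that span endothelial fenestrae and caveolae. It was among the most abundant members in RPM and did not pass in either cohort. Sham libraries had 468 to 1428 RPM with a median of 1114, and Sham-OVA libraries 1163, 1192, 801, 1235 and 1302 RPM. Both ends of the Sham range lay outside the OVA range, and the log2 fold change was 0.20 (SE 0.27, adjusted p = 0.5204) with a 95% confidence interval of -0.37 to 0.77. In PM offspring PM libraries had 441 to 1558 RPM with a median of 1191, PM-OVA libraries had 1049.6, 1366, 1153 and 1028 RPM, and the log2 fold change was 0.12 (SE 0.29, adjusted p = 0.733) with an interval of -0.50 to 0.73. edgeR called it higher in Sham offspring (0.57, adjusted p = 0.0425). Without PM replicate 5, Plvap had -0.09 in PM offspring (limma, adjusted p = 0.609).

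Sema3c (chr5:17574281-17730268, plus strand) encodes a secreted semaphorin that signals through neuropilins and plexin D1. The level was 239 to 543 RPM in Sham with a median of 398, and 130.5, 105, 96.9, 148 and 126 RPM in Sham-OVA. The highest OVA library was well below the lowest Sham library, and the log2 fold change of -1.71 (SE 0.19, adjusted p = 3.03e-06) had the smallest p among the members. PM libraries had 108 to 535 RPM with a median of 487, and PM-OVA libraries had 145, 132, 115 and 119.8 RPM. PM replicate 5 (108 RPM) lay below all 4 of them, and the 6 other PM libraries (379 RPM upwards) lay above. In PM offspring the log2 fold change was -1.59 (SE 0.37, adjusted p = 0.00245), and -1.90 (adjusted p = 2.62e-06) without PM replicate 5. Of the receptors, Nrp1 fell strongly, with -2.12 (adjusted p = 6.45e-06) and -2.46 (adjusted p = 2.18e-05), and Plxnd1 rose by 0.87 and 0.86. Nrp2 had -0.58 and -0.59, called with limma and in neither cohort with DESeq2 (-0.21 and -0.20), with edgeR (-0.13 and -0.21) or after median-of-ratios scaling (-0.22 and -0.23).

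Sox17 (chr1:4490931-4497354, minus strand) was the least abundant member in Sham and PM lung, in RPM and per kb. It measured 67.7 to 114 RPM in Sham with a median of 77.5, and 35.7, 30.9, 13.98, 47.6 and 37.03 RPM in Sham-OVA, a log2 fold change of -1.39 (SE 0.25, adjusted p = 1.76e-04). PM libraries had 66.4 to 115 RPM with a median of 75.3, and PM-OVA libraries had 56.4, 38.8, 21.2 and 27.2 RPM, a log2 fold change of -1.25 (SE 0.24, adjusted p = 8.36e-04). It was the only member whose OVA libraries lay below all saline libraries in both cohorts, PM replicate 5 included. The related factor Sox7 fell (-1.82 (adjusted p = 3.46e-04) and -1.88 (adjusted p = 0.00157)), while Sox18 did not pass (0.09 and 0.31). The direction of Sox18 in Sham offspring turned with the processing, at 0.46 after median-of-ratios scaling and -0.63 after removal of the trend with length and GC content, and both were called. Sox17 is also made by ciliated airway cells. Of 6 ciliated cell genes, none rose and 2 fell in Sham offspring, and 3 rose and 1 fell in PM offspring. Their sum was 731 to 1104 RPM in Sham, 136 to 363 in Sham-OVA, 803 to 1071 in PM and 284 to 629.6 in PM-OVA. In PM offspring the sum fell while their median log2 fold change was 0.63, from -2.50 for Sec14l3 to 1.32 for Rsph1. The sum thus does not stand for the list there. None of these genes was at 0 in every library, and their part in the Sox17 values was not tested.

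Cldn5 (chr16:18776847-18778262, plus strand), which encodes the claudin of endothelial tight junctions, did not pass. Sham libraries had 583 to 1378 RPM with a median of 900.4, and Sham-OVA libraries 1155, 998, 1412, 1469.7 and 1252 RPM, of which 2 lay above all Sham libraries. The log2 fold change was 0.44 (SE 0.22, adjusted p = 0.0793), with an interval of -0.01 to 0.90. In PM offspring the levels were 312 to 1138 RPM in PM and 891, 1124, 1760.5 and 1393 RPM in PM-OVA, a log2 fold change of 0.49 (SE 0.34, adjusted p = 0.212) with an interval of -0.24 to 1.22. Without PM replicate 5, Cldn5 had 0.24 (limma, adjusted p = 0.257). DESeq2 and edgeR called it higher, at 0.83 and 0.90 in Sham offspring and 0.92 and 0.89 in PM offspring, and so did limma without Sham replicate 6 (0.54, adjusted p = 0.0319). Other tight junction genes fell in both cohorts: Tjp1, a cytoplasmic scaffold (-2.61 (adjusted p = 2.36e-06) and -2.47 (adjusted p = 1.72e-04)), Ocln (-2.33 (adjusted p = 4.75e-06) and -2.13 (adjusted p = 9.90e-05)) and the adhesion molecule Jam2 (-2.04 (adjusted p = 1.28e-06) and -1.78 (adjusted p = 1.34e-04)). F11r, a further junctional adhesion molecule, did not pass with limma (-0.09 and -0.04) and was called higher by edgeR (0.36 and 0.35).

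Pecam1 (chr11:106654217-106750628, minus strand) encodes an adhesion molecule (CD31) of endothelial cells, platelets and leukocytes and changed least with limma. Sham libraries had 651 to 1260.2 RPM with a median of 1115, and Sham-OVA libraries 824, 885, 1343, 982 and 936 RPM, for a log2 fold change of -0.03 (SE 0.21, adjusted p = 0.9196) with an interval of -0.47 to 0.42. PM libraries had 459 to 1393 RPM with a median of 1146, and PM-OVA libraries 837, 1077, 1318 and 1183 RPM, with 0.06 (SE 0.27, adjusted p = 0.848) and an interval of -0.53 to 0.65. A log2 fold change of 1 either way lay outside both intervals on this scale. DESeq2 gave 0.42 and 0.47 in Sham and PM offspring, edgeR 0.49 and 0.45, and median-of-ratios scaling 0.34 and 0.43, none called. Without PM replicate 5, Pecam1 had -0.13 in PM offspring (limma, adjusted p = 0.447). Of 8 leukocyte genes, 4 rose and none fell in each cohort, and their sum was 526 to 1068 RPM in Sham, 1846 to 2747 in Sham-OVA, 584 to 781 in PM and 1538 to 2341 in PM-OVA. Of 5 platelet genes, 3 rose and 2 fell in Sham offspring and 2 rose and 1 fell in PM offspring, with sums of 22.3 to 60.96, 54.4 to 83.3, 21.5 to 105 and 44.01 to 71.9 RPM in the same order. None of these genes was at 0 in every library, and their part in the Pecam1 values was not tested.

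In whole lung, fewer cells of a type and less RNA of a gene per cell cannot be told apart. By ranges, 6 members had OVA libraries that did not overlap with Sham libraries, 5 lower, against 35.0% of all genes, and 1 higher, against 13.2%. In PM offspring 1 member was lower without overlap, against 28.6% of all genes, and none higher, against 13.3%. PM replicate 5 decided this count: without it 5 members were lower and none higher, against 33.0% and 15.5% of all genes.

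The ligands, receptors and close partners of the members, a list of 20 genes of which 19 were tested, had lower medians than the members. In Sham offspring 12 fell, 2 rose (Plxnd1 and Lmf1) and 5 did not pass, with a median log2 fold change of -1.23. In PM offspring 13 fell, 2 rose and 4 did not pass, with a median of -1.32. Genes of endothelial cells of all vessels also fell in the main. Of 14, 10 fell in each cohort, among them Cdh5, which encodes the cadherin of endothelial junctions (-1.49 (adjusted p = 1.27e-04) and -1.46 (adjusted p = 0.00196)), and Calcrl, the receptor of adrenomedullin, which had the lowest value (-2.40 in Sham offspring). The sialomucin gene Emcn had the highest (1.13) and rose in both cohorts. Their median was -1.19 in Sham and -0.98 in PM offspring, and their sum was 4658 to 7800.1 RPM in Sham, 2937 to 3838 in Sham-OVA, 3298 to 8045 in PM and 3431 to 4222 in PM-OVA. Of the 6 further genes of aerocytes, 5 fell and none rose in each cohort, from Fibin (-1.88) to Chst1 (-0.12), which did not pass, and their sum was 2218 to 3715 RPM in Sham and 1166 to 1486 in Sham-OVA.

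Among other vessel lists, 4 of 6 arterial genes fell in each cohort, with Efnb2, a ligand of arterial identity, lowest (-2.59 in Sham offspring) and Gja5 highest (-0.05). Of 6 venous genes, 1 rose (Ackr1, 1.03) and 1 fell (Slc6a2, -0.96) in Sham offspring, and 1 fell in PM offspring. None of these venous calls held once the length and GC trend was taken out (Ackr1 0.44, Slc6a2 -0.48). Of 5 lymphatic genes tested, 4 fell in Sham and 3 in PM offspring, with Lyve1 lowest (-2.79 in Sham offspring), and Reln (2.11) rose. The sixth, Ccl21a, was at 0 in every library. Of 6 pericyte genes, 5 fell in each cohort, with Kcnj8 lowest (-1.93), and Cox4i2 (1.36) rose. The extremes of the blood and airway lists in Sham offspring were Tpsab1 (2.36) and Cma1 (-0.23) for mast cells, Cd52 (3.88) and Itgb2 (-0.20) for leukocytes, Pf4 (2.02) and Ppbp (-2.02) for platelets, and Rsph1 (0.48) and Sec14l3 (-3.10) for ciliated cells.

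**Figure D3:**
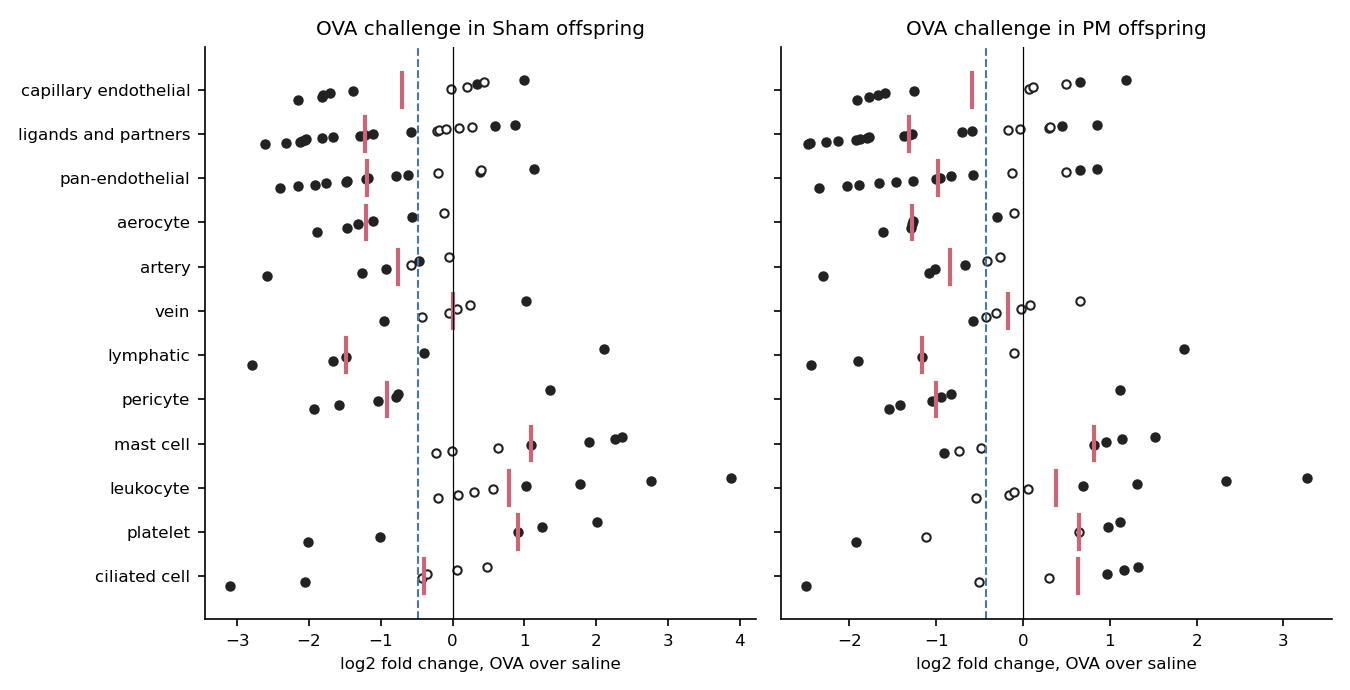
Log2 fold change of every tested gene of each list with OVA challenge in Sham and PM offspring, filled where called at an adjusted p under 0.05, with a red bar at the median of the list and a dashed line at the median of all genes. Most genes of the pan-endothelial, partner and pericyte lists lie to the left of the dashed line, with Emcn among those to its right. The median of the venous list lies to its right in both panels. Capillary endothelial genes lie on both sides of it.

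The direction of the members went with the length of their transcripts. The 4 shortest, Car4 (1256 bases), Cldn5 (1416), Gpihbp1 (1652) and Plvap (1987), had log2 fold changes above 0 in both cohorts, and of the 6 from 3242 to 5491 bases only Pecam1 (3441) did not fall. Without PM replicate 5, Plvap was at -0.09 in PM offspring. The medians of all genes also fell with length. In Sham offspring their median log2 fold change went from 0.15 in the shortest of 5 equal length classes to -1.05 in the longest, and in PM offspring from 0.17 to -1.02. Removal of a trend with length and GC content from each library, chosen after seeing the data, left the 5 falls called in both cohorts. In Sham offspring they were -1.75 for Ednrb, -1.71 for Aplnr, -1.49 for Sox17, -1.38 for Kit and -1.07 for Sema3c. In PM offspring Aplnr had -1.83, Sox17 -1.37 and Kit -1.32. Ednrb (-1.24, limma adjusted p = 0.0218) and Sema3c (-0.92, limma adjusted p = 0.0401) were closer to the threshold there. Of all 16535 genes in that fit, 7648 were called lower and 3047 higher in Sham offspring, and 7327 lower and 2899 higher in PM offspring. Car4 stayed called in Sham offspring at 0.44 (adjusted p = 0.0135) and not in PM offspring (0.64, adjusted p = 0.169). Gpihbp1 was no longer called in either and turned to -0.21 in Sham offspring, against a median of -0.44 for all genes in that fit. Plvap and Cldn5 had -0.42 and -0.33 in Sham offspring, and did not pass. Of the other lists, pan-endothelial genes then had 1 higher and 12 lower in Sham offspring and 1 higher and 9 lower in PM offspring, with Emcn the higher one in both. Venous genes had 0 calls in either cohort, the platelet list had 0 higher and 2 lower in PM offspring, and the rise of Cox4i2 in PM offspring was no longer called (0.17).

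**Figure D4:**
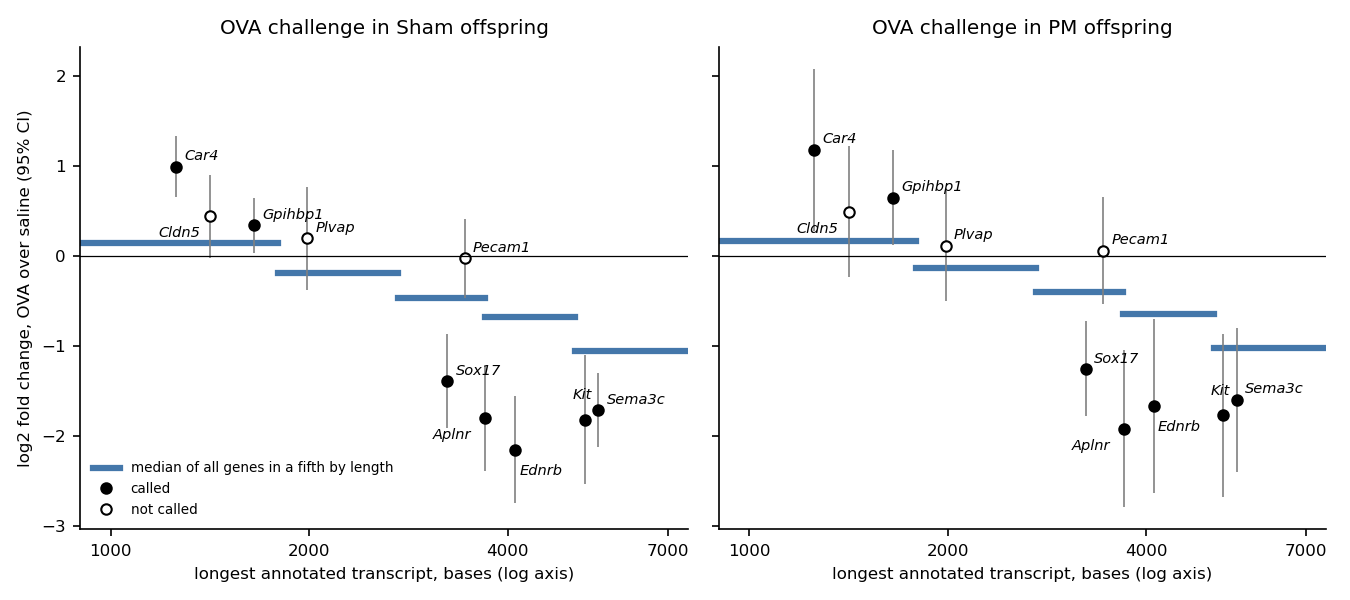
Log2 fold change with OVA challenge (95% confidence interval) against the length of the longest annotated transcript on a log axis, for Sham and PM offspring, with blue bars at the median of all genes in each of 5 equal classes by length, drawn over the part of the class inside the axis. The 5 genes that fell lie below the blue bars of their length, and Pecam1 lies above.

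Relative to Cdh5 within each library, a ratio that the scaling of a library does not move, the members formed 2 groups. Gpihbp1, Car4, Plvap, Cldn5 and Pecam1 were higher in every OVA library than in every saline library of both cohorts, by 1.46 (Pecam1) to 2.48 (Car4) on the log2 scale in Sham and 1.53 to 2.65 in PM offspring. That was 5 of 10 members, where 31.0% of all genes in Sham and 12.5% in PM offspring were higher without overlap. Sham replicate 3 had the lowest Cdh5 of its group, 512 RPM against 858 to 1444 in the others, which raises every ratio in that library. The share of all genes in Sham offspring without it was not determined. The log2 ratio of Cldn5 to Cdh5 was -0.65 to 0.19 in Sham, 1.37 to 2.498 in Sham-OVA, -0.56 to -0.31 in PM and 0.48 to 2.41 in PM-OVA. PM replicate 5 decides the background in PM offspring: without it the same count of members, 5, was higher without overlap, where 68.8% of all genes were. The count of members is below that share. Ednrb was lower without overlap in Sham offspring, by 0.66, where 2.97% of all genes were, and no member was in PM offspring, where 1.45% were. Without PM replicate 5, Ednrb was lower without overlap in PM offspring as well (1.48% of all genes), with log2 ratios of -3.27 to -2.99 in the other PM libraries and -3.91 to -3.30 in PM-OVA. The log2 ratios of Ednrb were -3.35 to -2.39 in Sham and -4.42 to -3.37 in Sham-OVA. Those of Kit, Aplnr, Sema3c and Sox17 overlapped between the groups of both cohorts, with differences of -0.45 to 0.21 (-0.36 to 0.40 in PM offspring without PM replicate 5). The ratio describes a gene against Cdh5 only, which itself fell, and no test was made.

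**Figure D5:**
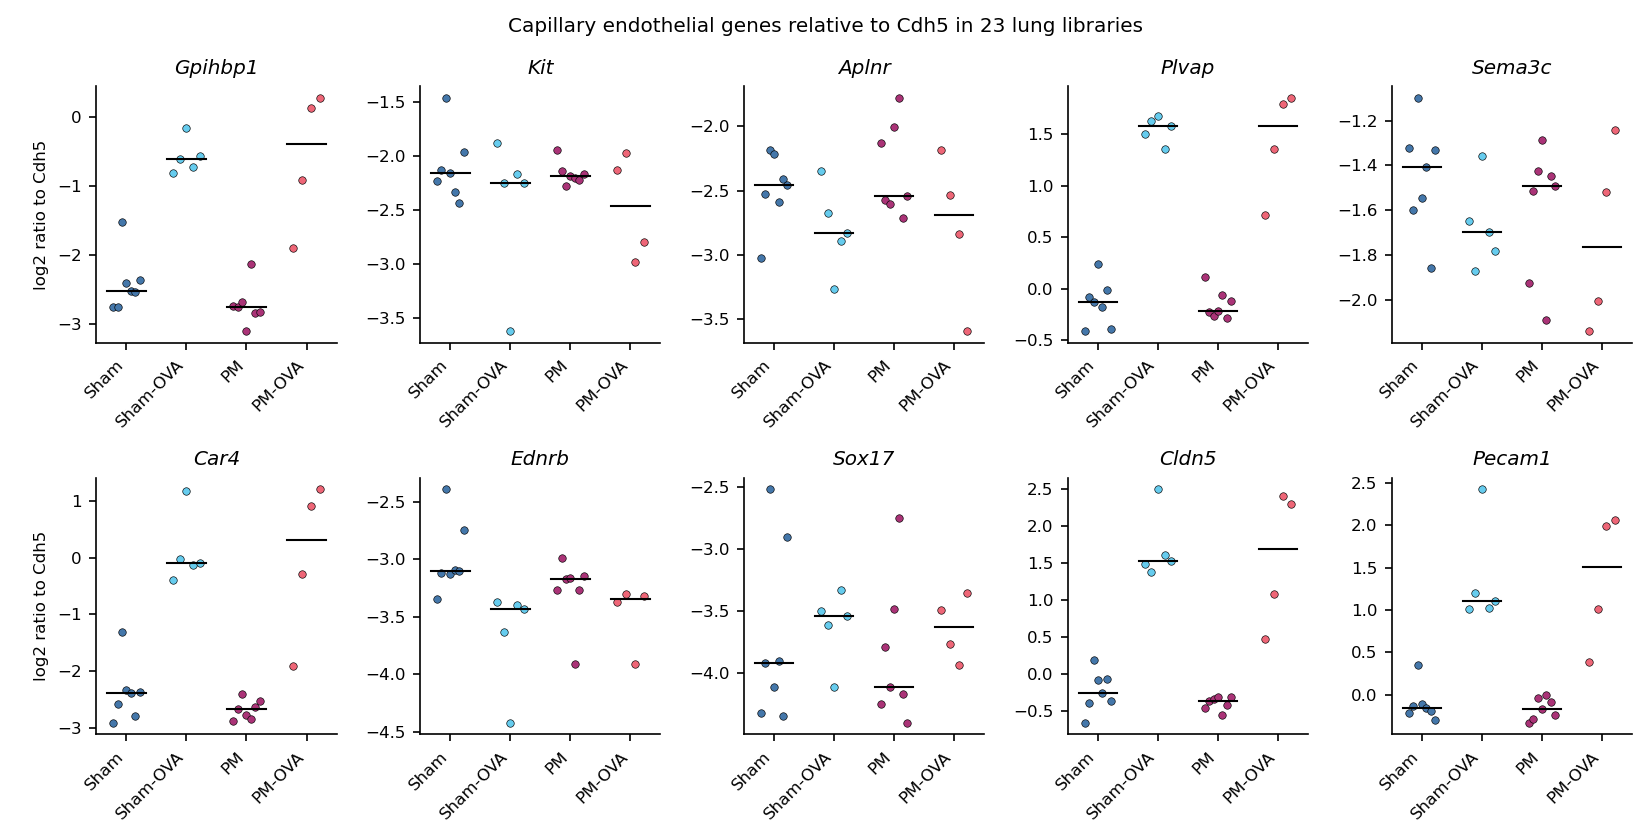
Log2 ratio of each capillary endothelial gene to Cdh5 in the same library, 1 point per library and a black line at the group median. Gpihbp1, Plvap, Car4, Cldn5 and Pecam1 rise clear of the saline libraries in both OVA groups, and Kit, Aplnr, Sema3c and Sox17 overlap.

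Maternal PM2.5 exposure gave no call among the members. Between PM and Sham, 0 of 10 members and 0% of all genes passed with limma (731 genes at an unadjusted p under 0.05, none a member, and 0 genes with DESeq2 or edgeR). The member log2 fold changes ran from -0.20 (Gpihbp1, interval -0.52 to 0.13) to 0.27 (Aplnr, interval -0.18 to 0.72). The intervals of all 10 lay between -0.81 and 0.72 on the log2 scale, and a change of 1 either way lay outside them. Between PM-OVA and Sham-OVA, 0 members and 0% of all genes passed with limma (313 at an unadjusted p under 0.05, none a member, 1 gene with DESeq2 and 0 with edgeR). Values ran from 0.01 (Cldn5, interval -0.53 to 0.54) to 0.32 (Ednrb, interval -0.70 to 1.34), and the widest interval was that of Kit, -1.22 to 1.43. A log2 change of Kit by 1 either way lay inside that interval and was not detectable with 5 and 4 libraries.

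The interaction, the difference between the OVA response of PM and of Sham offspring, passed for 0 members and 0% of all genes with limma (854 at an unadjusted p under 0.05, none a member, 2 genes with DESeq2 and 0 with edgeR). The largest value was 0.48 for Ednrb (interval -0.64 to 1.61) and is positive because its fall was smaller in PM offspring. Without PM replicate 5, which was low in the PM group, the fall of Ednrb in PM offspring was 1.995 against 2.15 in Sham offspring on the log2 scale. The intervals of the other members reached from -1.16 to 1.22. With array weights, an alternative that counts deviating libraries less, Kit passed the interaction test at -1.17 (adjusted p = 0.0152). In that fit 23.6% of all genes passed lower and 3.88% higher, and 1 of 10 members is below that share.

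For each member, the gene with the most similar pattern over the 23 libraries was sought among the other 16794 genes tested. Similarity was the root mean square (RMS) difference of centred log2 values. Most alike was Pecam1 with Efnb1, which encodes an ephrin ligand (RMS difference 0.15, against 0.37 for the variation of Pecam1 about its own mean). Gpihbp1 was nearest to Ramp2 (0.17 against 0.39), an endothelial partner of Calcrl, and Kit to Tspan7 (0.18 against 1.10), a tetraspanin. Ednrb was nearest to Smad6 (0.21 against 1.14), an inhibitory SMAD, and Car4 to Sema3f (0.22 against 0.74), a secreted semaphorin. Plvap and Cldn5 had the same nearest gene, Pltp, which encodes a phospholipid transfer protein (0.20 and 0.25). Aplnr was nearest to Zhx1 (0.23), Sema3c to Prickle2 (0.21) and Sox17 to Rsbn1l (0.18). No member was the nearest gene of another.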

How the data were processed

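Lung RNA-Seq of 23 offspring was analysed, grouped by the maternal exposure and challenge named in the labels. The libraries were stranded per the labels. Per the paper's methods, the authors used Trimmomatic for trimming, Bowtie2 for alignment to GRCm38 and SeqMonk for quantification. The submitters' processing notes also name bcl2fastq and mm10. The values used are the authors' RPM, deposited in 1 table of 35322 genes named after RPKM. In each library, the value of 1 read divided 100% of the values without remainder (tolerance 0.05 reads), independent of gene length, so the unit was taken as RPM and reads were recovered, although the tests were planned for RPKM. Reads on genes ranged from 2298645 to 17393579 per library, and low genes are least precise in the shallow OVA libraries.

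Values were transformed to log2(RPM + 0.5). A floor of 0.5 RPM, reached in no fewer than 4 of 23 libraries, left 16795 genes for limma 3.58.1 under R 4.3.3 (trend in the variance, Benjamini-Hochberg adjustment over all genes, called under 0.05), with 2 groups per fit and all 4 for the interaction. Replicate numbers, taken from the sample titles, did not pair the libraries. Of the tested genes, 98.5% had an annotated transcript length, and the trend with length and GC content was removed with natural splines (df 4) within each library. DESeq2 1.42.0 and edgeR 4.0.16 were run on the recovered reads. The limma fits were tested on counts simulated from Sham means and the real library sizes, with the same spread for all genes. The simulation held no outlying library and no trend with length, so it does not cover these. The members and gene lists were chosen with earlier results of these data known. Genes named were all members, the partners with the 6 largest fold changes plus Lpl, Kitl, Apln and Edn1, the highest and lowest gene of each other list, Cdh5 and the nearest gene of each member. Further partners (Ece1, Ednra, Lmf1, Angptl4, Nrp2, Plxnd1, Sox7, Sox18, F11r) and Ms4a2 were named after their values were seen, and 1 partner is not reported here. Alternatives were other pseudocounts, filters, scalings, weights, thresholds, tools, a replicate block and leaving out each library. Figures were drawn with matplotlib 3.10.9.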

Additional observations from a re-analysis of the deposited data

Results flagged for a closer look

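Each member was checked in each group of 4 to 7 libraries for a highest or lowest library whose gap to the nearest other library was large for the range of the group (Dixon's 95% critical value). Of 40 such sets 7 passed, and chance flags about 1 in 20. In 6 of them the library was PM replicate 5, which was far below the other 6 PM libraries. It had 99.5 RPM of Kit, where the others had 266 to 375, and 63.7 RPM of Car4 (188 to 273 in the others). Ednrb measured 30.2 RPM there (129 to 175 in the others), and Sema3c 107.6 (379 to 535). Cldn5 was at 312 RPM (930.1 to 1138 in the others) and Pecam1 at 459 (1139.6 to 1393). The seventh was Plvap in Sham-OVA replicate 3, at 801 RPM against 1163 to 1302 in the other 4 libraries. The 6 values of PM replicate 5 come from 1 library and are not independent of each other.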

How the results depend on the processing

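The count of members called with OVA challenge, 7 in each cohort, was 6 to 9 in Sham offspring and 5 to 8 in PM offspring under the alternatives other than the study's threshold, and 6 to 8 and 5 to 7 without 1 library. The partner count, 14 in Sham and 15 in PM offspring, was 14 in each Sham fit and 13 to 16 in PM fits without 1 library. At the study's threshold the members called were 0 in each cohort, and the partners were 1 in Sham (Kitl) and 0 in PM offspring. Kit, Ednrb, Aplnr, Sema3c and Sox17 were called lower in both cohorts under each other alternative. With the trend with length and GC content removed, Gpihbp1 in Sham offspring reversed to -0.21. The interaction count of 0 became 1 with array weights, through Kit, whose value of 0.05 reversed to -1.17, in a fit that called 651 genes higher and 3965 lower where 0 were called before. Counts for maternal exposure, with or without OVA, were 0 throughout, and 0 without 1 library, as was the interaction count. Over all comparisons and alternatives there were 1380 values of members, called ones included. In 117 of these a member that was not called changed sign. The number of members higher relative to Cdh5 without overlap in both cohorts, 5, was 5 with other pseudocounts or the mean of the pan-endothelial genes as the reference, and 5 to 6 members were separated in 1 direction in both cohorts without 1 library (6 without PM replicate 5, of which Ednrb was lower).

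The replicate numbers did not pair the libraries: deviations of same-numbered OVA and saline libraries correlated at -0.10 to 0.12, those of Sham and PM libraries at -0.25 to 0.10, and those of Sham-OVA and PM-OVA libraries at 0.60, 0.22, 0.62 and -0.31, so that not every pair was above 0.1. These numbers are those of the sample titles. The library names of most OVA samples carry other numbers, and pairing by those was not checked. With a replicate block, 6 members and 14 partners were called in Sham offspring and 6 members and 11 partners in PM offspring, and 0 members in the other comparisons. Of all 16795 genes, that fit called 2908 higher and 7117 lower in Sham offspring, and 2288 and 5694 in PM offspring. Gpihbp1 was lost in both cohorts (adjusted p = 0.0571 and 0.159). Depth limits low genes most in Sham-OVA replicate 3.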
